A study of Mus musculus with 20 samples.

Results

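The clustered zinc finger genes are 246 of the 389 numbered Zfp genes that are protein-coding in GENCODE M21 on the mm10 genome build. A gene was a member when its symbol was Zfp followed by a number and at most a letter, Zfp42 and Zfp352 aside, and when the start of another such gene lay within 200 kb on the same chromosome. The 246 members form 55 clusters on 15 chromosomes, and the other 143 numbered Zfp genes are called isolated here. Just inside the limit was Zfp986, with its nearest neighbour's start 198109 bp away, and just outside was Zfp969, at 222238 bp. The annotation holds many more genes of this kind under other names, which were not counted as members.

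The data are 10 lists of m6A peaks. They come from mouse embryonic stem cells of the C57BL/6 strain, in which RNA bound to chromatin was isolated, with 2 libraries for each of 5 groups: Mettl3 KO1, Mettl3 KO2, Mettl3 controls, Ythdc1 cKO and Ythdc1 controls. All cells were grown with LIF, which keeps them undifferentiated, and with the inhibitors CHIR99021 and PD0325901. N6-methyladenosine (m6A) was enriched by immunoprecipitation with an antibody, and a peak is a stretch of transcript where the precipitated fragments pile up above background. Nothing in the labels says whether KO1 and KO2 are separate clones, how or when the cKO was induced, or whether the replicates are separate cultures. The p-values therefore reflect library-to-library spread, part or all of which could be technical.

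Most genes of this family encode a KRAB domain at the start of the protein and a long array of Cys2His2 zinc fingers at its end, each finger reading a few bases of DNA. The KRAB domain recruits Trim28, which brings the histone methyltransferase Setdb1 and HP1 proteins to retrotransposons and to some imprinted genes, and in stem cells this keeps those elements silent. The genes arose by repeated local duplication and therefore lie in clusters, and their whole finger array is usually encoded in a single long last coding exon. Mettl3 is the catalytic subunit of the enzyme that writes m6A on nuclear RNA, and Ythdc1 is the nuclear protein that binds it. The enzyme's usual sequence context is called DRACH, a 5-base pattern around the methylated A in which D is any base but C, R is A or G, and H is any base but G.

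The members' gene structure follows that description. In the principal transcript the last coding exon had a median length of 1420 nt, which was 87.1% of the coding length by the median, against 933 nt in isolated Zfp genes. Fingers, found in the translated frame by the spacing of their cysteines and histidines, numbered 11 by the median and up to 30 in Zfp729b, against a median of 7 in isolated genes. Of the 237 members with at least 3 fingers, 231 had at least 90% of them in the last coding exon.

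To show where peaks sit in these exons, the sequence around the strongest last-coding-exon summit is printed for 8 members. They are those whose best peak, anywhere in the gene, had the greatest lowest within-list percentile of fold enrichment over the 10 libraries (93.3 to 96.7). Each window reaches 30 nt to both sides of the summit, 5′ to 3′ on the transcript strand, from the GENCODE M21 transcripts, and capitals mark matches to DRACH.
Zfp973 at chr2:176680287-176680347 (+): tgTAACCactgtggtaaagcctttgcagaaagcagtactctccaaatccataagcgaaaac
Zfp180 at chr7:24104635-24104695 (+): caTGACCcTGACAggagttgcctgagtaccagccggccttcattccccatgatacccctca
Zfp526 at chr7:25225500-25225560 (+): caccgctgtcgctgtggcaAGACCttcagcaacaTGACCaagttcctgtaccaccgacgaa
Zfp472 at chr17:32977392-32977452 (+): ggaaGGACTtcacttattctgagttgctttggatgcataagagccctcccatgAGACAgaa
Zfp84 at chr7:29776460-29776520 (+): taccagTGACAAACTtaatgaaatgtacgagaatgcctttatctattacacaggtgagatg
Zfp850 at chr7:27990188-27990248 (-): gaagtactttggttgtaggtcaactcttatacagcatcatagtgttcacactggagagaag
Zfp942 at chr17:21929113-21929173 (-): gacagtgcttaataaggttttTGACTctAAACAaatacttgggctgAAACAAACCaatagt
Zfp780b at chr7:27964737-27964797 (-): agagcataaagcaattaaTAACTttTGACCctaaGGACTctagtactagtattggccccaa

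Of these 8 windows, Zfp850 held no DRACH match and Zfp942 held 4, and GGAC, the 4-base core of the preferred site, was in the windows of Zfp472 and Zfp780b. The Zfp942 summit was placed between 318 and 350 nt from the start of the 1301-nt exon in all 10 libraries, whereas that of Zfp526 moved between 670 and 1993 nt along a 2025-nt exon. Not every strongest peak of these genes was in the last coding exon. In Zfp180 and Zfp84 the strongest peak of each library had its summit in the 3′ UTR, in Zfp973 it lay in an intron, and in Zfp780b it lay in an intron or the 3′ UTR, so for these 4 genes the printed window belongs to a weaker peak. Zfp180 and Zfp84 had a last-coding-exon summit in just 6 of the 10 libraries, and Zfp780b in 8.

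The lists held 40959 to 46735 peaks on the 22 chromosomes used, and no read totals were given with them. The most common background at a peak, solved from the deposited fold and p-value, served as a relative measure of depth and was 14.9 to 20.03 reads. Every pluripotency marker listed (10 of 10, among them Pou5f1, Sox2 and Nanog) had a peak in at least 2 libraries, and 8 had one in all 10. Of 8 fibroblast markers, Pdgfrb and Vim had a peak in every library and Col3a1 and Thy1 had none, while Col1a1, Col1a2, Col5a2 and Lox had a peak in both Mettl3 control libraries and in none of the 4 Mettl3 knockout libraries. The part of that difference in the Mettl3 comparison was not tested. Replicates agreed closely, with a correlation of covered length across members of 0.979 to 0.982 between the libraries of a group. Covered length is the summed full width of the peaks whose summit lay in the gene, also where they reach beyond it. In values per gene, a peak in overlapping genes counts for each of them. Peak lists do not measure expression, and less RNA of a gene and less m6A on it cannot be told apart in them.

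Almost all members had peaks in the m6A lists. A peak with its summit inside the gene on its own strand was found for 234 members in some library and for 204 in all 10 libraries. Only 12 had none: Zfp354b, Zfp575, Zfp467, Zfp455, Zfp683, Zfp872, Zfp663, Zfp879, Zfp938, Zfp92, Zfp9 and Zfp983. In a single library 215 to 227 members (87.4% to 92.3%) had a peak, against 79.0% to 83.2% of isolated Zfp genes and 41.8% to 45.8% of the other protein-coding genes. These shares are a description, since a gene without a peak may not be expressed.

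Peaks of members concentrated in the last coding exon, the exon of the fingers. There 41.9% ± 1.53 of the member peaks had their summit (SD over 10 libraries), with a range of 39.9% to 44.4%, against 22.7% ± 1.41 for isolated Zfp genes and 9.49% ± 1.22 for the other protein-coding genes. The members' share was the higher one in 10 of 10 libraries in both comparisons (two-sided sign-flip permutation test over libraries, p = 0.001953, the smallest it can give, adjusted p = 0.0027 over 18 comparisons of gene sets). These tests cover libraries only, since all libraries read the same genes.

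Other genes with a long last coding exon came close to the members. Among 1575 other protein-coding genes with a last coding exon of at least 1000 nt, 40.3% ± 2.40 of the peaks lay in that exon, 1.65 percentage points below the members (members higher in 9 of 10 libraries, permutation p = 0.00586, adjusted p = 0.00703). By genes instead of peaks, 88.4% of the members with a peak had one in the last coding exon, and 88.9% of those other long-exon genes did (permutation p = 0.191, adjusted p = 0.203, members higher in 3 of 10 libraries). The plot of last-exon shares by gene set shows both sets at nearly the same level.

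**Figure D1:**
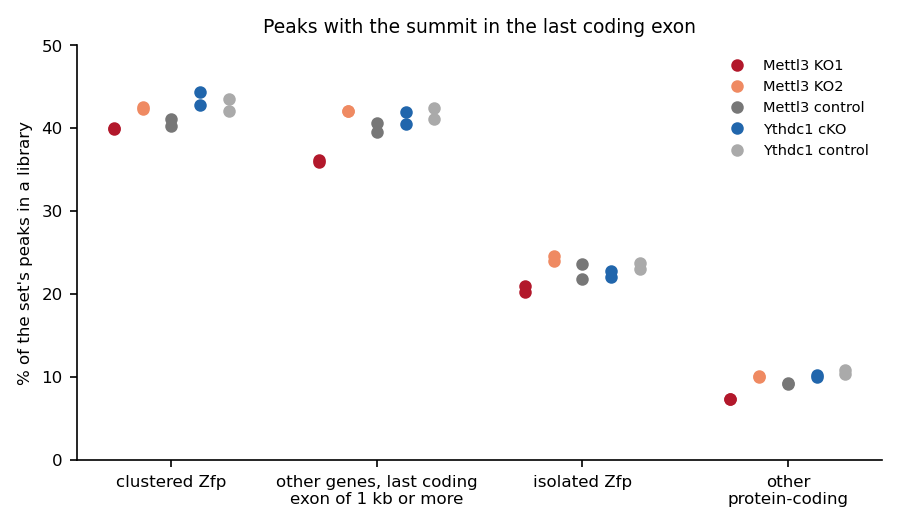
Share of each gene set's peaks whose summit lay in the last coding exon (vertical axis, % of peaks), with 1 point per library and 5 groups of 2 libraries. Clustered Zfp genes (39.9% to 44.4%) and other genes with a last coding exon of at least 1000 nt sit near each other, above isolated Zfp genes and the other protein-coding genes.

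Within the finger exon, summits were not spread evenly. The stretch before the first finger is 24.9% of the exons' length and held 33.6% ± 2.91 of the summits, while the finger array is 72.5% of the length and held 63.9% ± 2.82 of the summits (SD over 10 libraries; two-sided sign-flip permutation p = 0.001953, the smallest possible, for each). This test, too, covers libraries only, since all libraries read the same exons. When each exon was divided into 10 equal bins, bin 2 from the 5′ end held 15.7% to 24.4% of the summits and bin 1 held 3.39% to 7.27%. In every library bin 2 held the largest share, in the knockouts and in the controls alike.

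Sequence near these summits differed from the rest of the same exons. Within 50 nt of a summit DRACH occurred 28.2 ± 0.708 times per 1000 nt, against 21.7 ± 0.121 over the whole exons of the same genes, and GGAC occurred 3.25 ± 0.203 times against 1.90 ± 0.0374 times (both higher near summits in 10 of 10 libraries, permutation p = 0.001953, adjusted p = 0.00244). GAACT, another DRACH form, was denser too, at 1.78 ± 0.116 against 0.991 ± 0.0152 per 1000 nt. These means pool knockouts and controls. Near summits DRACH was at 28.55, 28.37, 28.67 and 29.0 per 1000 nt in the Mettl3 knockouts, against 28.0 and 29.46 in their controls. GGAC was at 3.34, 3.27, 3.42 and 3.53, against 3.53 and 3.18, so the groups overlapped in both motifs. The codons of the conserved linker between neighbouring fingers showed the opposite: 3.08 ± 0.261 linkers per 1000 nt near summits, against 3.79 ± 0.0452 over the exons, lower in 10 of 10 libraries (permutation p = 0.001953, adjusted p = 0.00244). Linkers lie between fingers, and the finger array held 63.9% of the summits on 72.5% of the length. The part of summit position in these differences of density was not tested. The permutation tests of motifs likewise cover libraries only.

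The linker is the repeated part of the finger array, and its codons usually contain a DRACH match of their own. AAACC was present in 874 of the 1298 linkers of the members (67.3%). Its density near summits, 5.19 ± 0.378 per 1000 nt, was close to that over the whole exons, 5.24 ± 0.0714 (higher in 6 of 10 libraries, permutation p = 0.727, adjusted p = 0.727). The 5 motifs were searched on the transcript strand, and all but the linker and GGAC are forms of DRACH, and GGAC overlaps it.

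Many members resemble each other, and the sources used here do not give how reads that fit several copies were placed. For 70 members at least 10% of the 50-base words of their transcripts also occurred in a transcript of another gene. Of these, 59 (84.3%) had a peak in all 10 libraries, and of the other 176 members 145 (82.4%) did. Zfp973 (88.7% shared), Zfp987 (93.1%), Zfp600 (85.0%) and Zfp932 (55.5%) are the named members where reads from copies are most likely to be mixed, so that their values are uncertain.

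Of 15 listed members with a known role, all but Zfp92 had a peak in every library. Zfp809 silences proviruses in stem cells by binding the primer binding site of murine leukaemia virus. It had a peak in all 10 libraries, covering 2.42, 3.13, 2.70 and 2.31 kb in the Mettl3 knockout libraries against 2.77 and 2.74 kb in the Mettl3 controls, and 2.91 and 2.48 kb in the Ythdc1 cKO against 2.99 and 2.56 kb in its controls. The groups overlap in both comparisons. Its last coding exon is only 161 nt long, and its strongest peak lay in the 3′ UTR in 8 libraries.

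Zfp568 represses a placental promoter of Igf2 during early development. Its peaks covered 4.40 and 3.94 kb in the Ythdc1 cKO against 4.56 and 4.56 kb in the controls, so that the groups did not overlap, and 3.57 to 4.01 kb in the Mettl3 knockouts against 3.40 and 3.96 kb in the controls, which overlap. Zfp445 acts with Zfp57 in keeping imprints. It had 3 and 4 peaks over 3.29 and 3.64 kb in the Ythdc1 cKO, against 6 and 5 peaks over 3.15 and 3.11 kb in the controls: fewer and longer peaks in the cKO.

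Zfp110 encodes a protein that binds the p75 neurotrophin receptor. It was covered over 0.715 and 0.682 kb in the Ythdc1 cKO against 1.35 and 1.17 kb in the controls, lower in both cKO libraries. Zfp266 impedes the reprogramming of somatic cells to pluripotency. Its strongest peak lay in the last coding exon in every library, and its peaks covered 1.02 to 1.34 kb in the Mettl3 knockouts against 1.14 and 1.33 kb in the controls, and 1.06 and 1.27 kb in the cKO against 1.24 and 1.21 kb in its controls, overlapping in both comparisons. Zfp92, an X-linked member that lies beside Zfp275, was the listed gene without a peak in any library.

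The loss of Mettl3 left most member peaks in place in the deposited lists. Whether a peak that stayed in the knockouts marks m6A was not tested. Overlapping peaks of the same strand (1 bp or more) were merged to a region, and a control region was called lost when no knockout library had a peak there. Both Mettl3 controls had a peak in 525 member regions, of which 25 (4.76%) were lost in all 4 knockout libraries, against 8.52% of the regions of all protein-coding genes, and 404 (77.0%) were kept in all 4, against 65.7%. Just 4 of 426 regions found in all 4 knockout libraries were absent from both controls (0.939%, against 4.3%), and 6 to 15 were when any 1 library was left out. By summit position, 5 of 219 coding-exon regions (2.28%, against 6.91%) and 13 of 188 intron regions (6.92%, against 9.58%) were lost. Isolated Zfp genes were close to the members in coding exons, with 3 of 153 regions lost (1.96%). A share of regions has no test here, and 1 control library weighs on it: without either Mettl3 control in turn, 54 or 42 member regions counted as lost.

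Member regions were wide, and a wide region has more bases in which a knockout peak can overlap it. Those of the Mettl3 controls had a median of 616 nt, against 416 nt for all protein-coding genes. When peaks were joined only where their summits lay within 100 nt, 34 of 478 member regions (7.11%) were lost, against 10.1% of all, and 271 (56.7%) were kept, against 56.9% of all. Of 340 regions in all knockout libraries 20 (5.88%) were gained, against 6.47% of all. The shares kept and gained were then near the background.

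A single member lost every control region with Mettl3, 1 of 216 (against 3.94% of 9448 genes with a control region). It was Zfp672, in a pair with Zfp692 on chromosome 11. It had no peak in the 4 Mettl3 knockout libraries, against 1 peak each in the controls, at chr11:58316605-58316894 in the coding exon of its fingers, with a fold enrichment of 4.39 and 3.43. These control peaks were weak, at the 22.8th percentile of the list or above. In the Ythdc1 cKO it had 2 peaks each over 0.873 and 0.905 kb, against 1 each over 0.374 and 0.371 kb in the controls.

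The 4 gained regions were all in introns. The one with the highest rank lay in Zfp987 (chr4:146101355-146101573), a gene whose transcript is almost wholly shared with others, with folds of 7.0 and 6.32 in KO1, 5.67 and 6.47 in KO2, and no peak in the controls. The others lay in Zfp229, in the overlapping genes Zfp934 and Zfp935, and in Zfp871, at the 14.5th percentile or lower in at least 1 knockout library. A fold belongs to its own library and carries no scale between libraries.

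The length under peaks was shorter in the Mettl3 knockouts than in their controls. Member peaks numbered 636, 642, 649 and 645 in the knockout libraries (KO1, then KO2) against 632 and 628 in the controls. Their median width was 372, 361, 392 and 413 nt in the knockouts against 417.5 and 431.5 nt in the controls, and they covered 375.6, 388.0, 398.8 and 391.3 kb in the knockouts against 433.7 and 455.8 kb in the controls. The knockouts thus had slightly more and shorter peaks, with no overlap between the groups in any of the 3 measures. The covered length differed by -56.3 kb between the means (exact permutation test over libraries, two-sided, p = 0.0667), the number of peaks by 13.0 (p = 0.0667, exact), and the exact p for the width was 0.133. With 4 libraries against 2 the test cannot go below 0.0667. The measure of depth was 16.3, 16.5, 16.1 and 14.9 background reads in the knockouts against 16.4 and 18.2 in the controls, and its part in the difference was not tested. The number of peaks, width and covered length were added as measures after the data had been seen.

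The finger exons were also covered less. Peaks covered 56.4%, 58.9%, 61.9% and 60.6% of the 344.8 kb of last coding exons in the knockouts, against 66.0% and 68.1% in the controls (exact permutation p = 0.0667, the smallest possible). At least 50% of the exon was covered in 140, 143, 161 and 156 members in the knockouts and in 171 and 174 members in the controls. Per gene, 63 of 232 members with a peak (27.2%, against 24.1% of all genes with a peak) were covered over a shorter length in every knockout library than in either control, and 6 (2.59%, against 8.72%) over a longer one. Without the first control 98 were shorter, and with any 1 library left out 7 to 17 were longer. The members' share of shorter genes was thus near the background. It was 30.9% for isolated Zfp genes and 27.0% for the other genes with a long last coding exon.

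Single peaks of the Mettl3 controls often covered what were several peaks in a knockout. Between libraries of the same number, 1.25% to 2.94% of the knockout member peaks that overlapped a control peak spanned at least 2 of them, and 9.31% to 12.4% of the control peaks spanned at least 2 knockout peaks. For the other long-exon genes the shares were 2.09% to 3.14% of the knockout peaks and 7.26% to 8.76% of the control peaks, and the difference from members was not tested.

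Among the 5 members with the most regions, 2 had a much shorter covered length in the Mettl3 knockouts, given here without a test. Zfp943, in an 18-member cluster on chromosome 17, was covered over 3.42, 3.78, 4.10 and 3.40 kb in the Mettl3 knockouts, against 7.95 and 8.29 kb in the controls. Zfp936 on chromosome 7 was covered over 6.08, 5.72, 8.15 and 9.19 kb in the knockouts, against 10.1 and 11.8 kb in the controls, and its number of peaks was 9, 8, 14 and 13 in the knockouts against 15 and 15 in the controls. In both genes every knockout library was below both Mettl3 controls, and in Zfp936 KO1 was below KO2. The control groups also differed from each other in these genes. The mean covered length in the Ythdc1 controls was 5.18 kb for Zfp943 and 4.09 kb for Zfp936, against 8.12 and 10.98 kb in the Mettl3 controls. For Zfp936 the Ythdc1 controls thus lay below the means of KO1 (5.9 kb) and KO2 (8.67 kb). Zfp935 and Zfp934, which overlap each other, went the other way in number, with 12 to 17 peaks in the knockouts against 9 to 12 in the controls. Zfp973 had 13 to 15 peaks in the knockouts against 12 and 14 in the controls.

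KO1 and KO2 did not place their member peaks alike. The intron share was 37.3% and 40.03% in KO1 and 32.5% and 32.6% in KO2, against 35.0% and 36.3% in the controls, so that KO1 lay above and KO2 below both controls. The pooled knockouts had 35.6% ± 3.71 (n = 4) and the controls 35.6% ± 0.946 (n = 2; exact permutation p = 1.0). Coding exons held 42.5% ± 1.65 of member peaks in the knockouts and 41.8% ± 0.822 in the controls (exact permutation p = 0.667). The other protein-coding genes had 60.6% and 60.4% of their peaks in introns in KO1 and 52.5% and 51.6% in KO2, against 52.3% and 52.5% in the controls, so the higher intron share of KO1 was not limited to members.

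**Figure D2:**
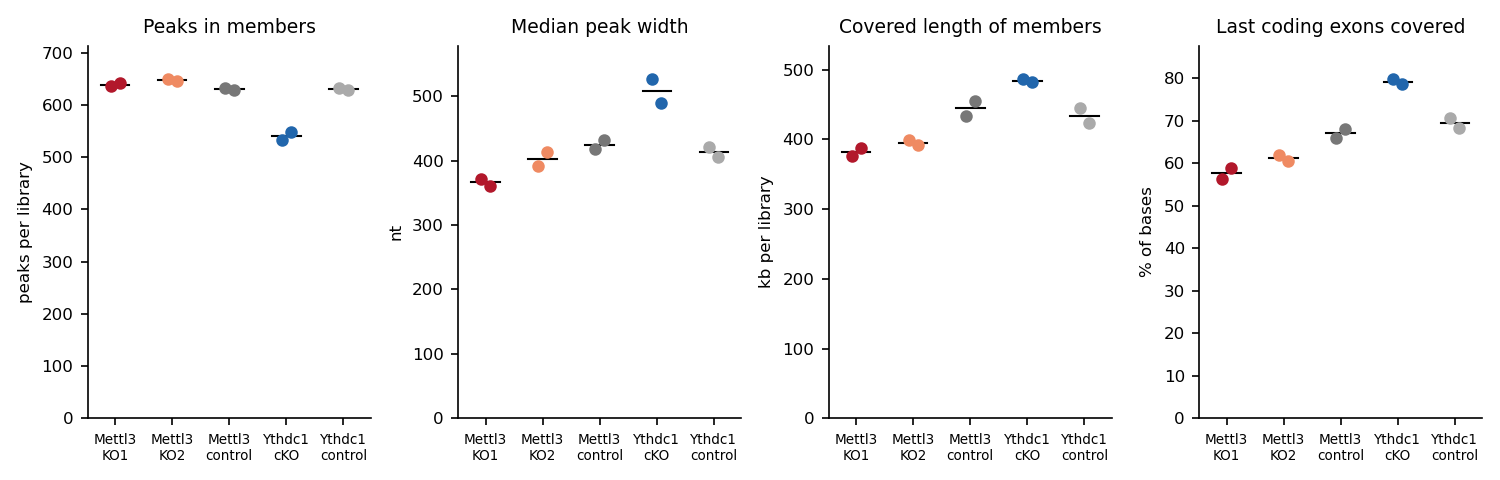
Number of member peaks, their median width in nt, their summed width in kb (the covered length), and the percent of last coding exon bases they cover, with 1 point per library and a line at the mean of the 2 libraries. The Ythdc1 cKO libraries have the fewest (532 and 548) and widest peaks, and the Mettl3 knockouts cover less of the finger exons than their controls.

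In the Ythdc1 cKO the members had fewer and much wider peaks. They numbered 532 and 548 in the cKO, against 632 and 629 in the controls, with median widths of 526 and 489.5 nt in the cKO against 420.5 and 406 nt in the controls. The covered length was 486.1 and 482.6 kb in the cKO, against 445.2 and 423.0 kb in the controls, and the groups overlapped in none of these measures. The differences of the means were -90.5 peaks, 94.5 nt and 50.2 kb, each with an exact permutation p of 0.333, the smallest that 2 against 2 libraries allow. The number of peaks was 0.857 times that of the controls for members, 0.907 times for isolated Zfp genes and 0.881 times for the other protein-coding genes. For the other genes with a long last coding exon it was 0.987 times, so the fall was not shared by every gene set. The number of members with a peak hardly moved, at 227 and 226 in the cKO and 226 and 225 in the controls.

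Peaks reached over more of the finger exons in the cKO. They covered 79.7% and 78.7% of last coding exon bases in the cKO, against 70.5% and 68.4% in the controls, and 199 and 198 members in the cKO had at least 50% of the exon covered, against 186 and 175 in the controls. All 10 bins of the exon were covered more in both cKO libraries than in either control: bin 3, for example, at 85.9% and 84.3% in the cKO against 75.1% and 72.9% in the controls. The measure of depth moved the same way, at 20.03 and 19.3 background reads in the cKO against 17.8 and 15.7 in the controls, and its part in the wider coverage was not tested. In the other protein-coding genes the covered length was not larger in the cKO, 13390 kb by the mean in the cKO against 13850 kb in the controls.

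**Figure D3:**
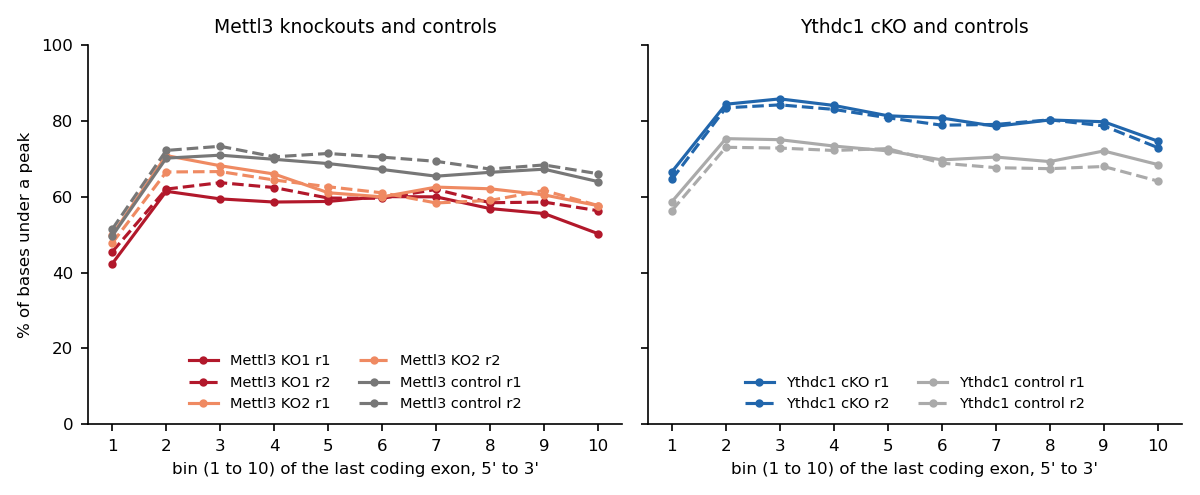
Percent of bases under a peak (vertical axis) in each of 10 equal bins of the members' last coding exons, from 5′ to 3′ (horizontal axis), with 1 line per library. Both Ythdc1 cKO libraries lie above both controls in all 10 bins, and the Mettl3 control libraries lie above all 4 knockout libraries except KO2 replicate 1 in the first 2 bins, with bin 1 covered least in each library.

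Gene by gene, 114 of 230 members with a peak (49.6%, against 25.3% of all genes with a peak) were covered over a longer stretch in both cKO libraries than in either control, and 39 (17.0%, against 42.2%) over a shorter one. Without the second control 64 were shorter. Isolated Zfp genes had 40.7% longer and 26.8% shorter, and the other genes with a long last coding exon 41.5% longer and 24.9% shorter. Their total covered length was 1.11 times that of the controls, and that of the members was 1.12 times. More length under peaks in the cKO was thus shared with other genes that have a long last coding exon.

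In the cKO a single member peak often covered what were several peaks in the controls. Of the cKO peaks that overlapped a control peak of the same library number, 75 of 462 (16.2%) and 79 of 456 (17.3%) spanned at least 2 control peaks, against 10.1% and 10.7% in the other long-exon genes, 7.43% and 9.48% in isolated Zfp genes and 3.59% and 3.90% in the other protein-coding genes. The reverse, a control peak spanning at least 2 cKO peaks, held for 13 of 539 (2.41%) and 14 of 542 (2.58%) member peaks. The difference between gene sets was not tested.

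**Figure D4:**
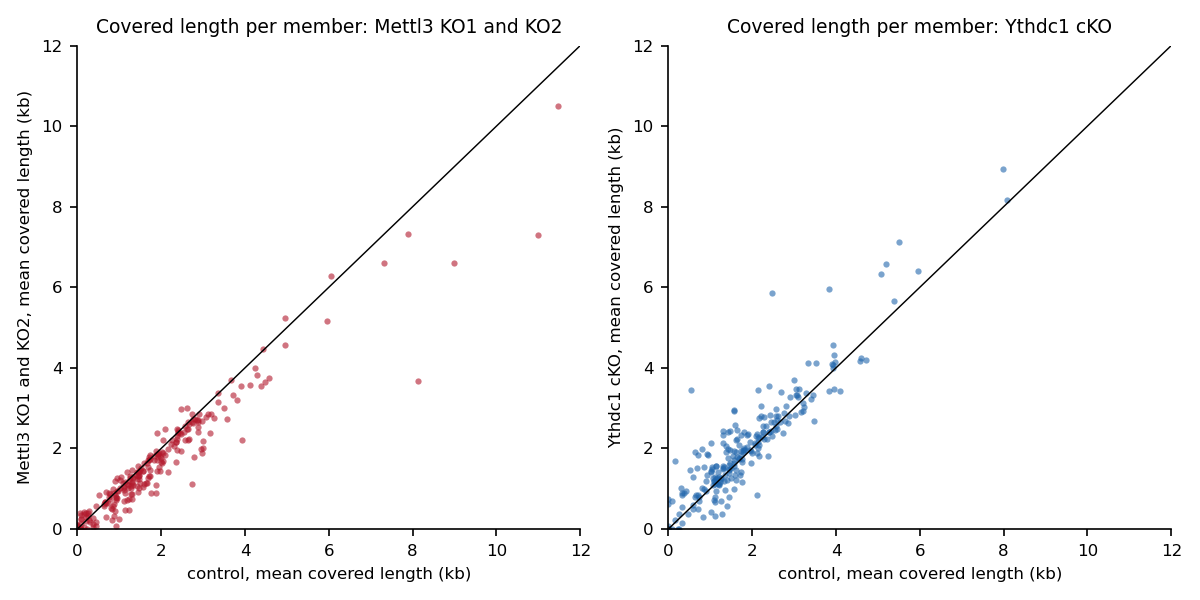
Mean length under peaks of each member in the knockout libraries (vertical axis, kb) against the mean in the control libraries (horizontal axis, kb), with the Mettl3 comparison left and the Ythdc1 comparison right, 1 point per member and the line of equality. In the Ythdc1 comparison 154 members lie above the line and 75 below, and in the Mettl3 comparison 59 lie above and 173 below.

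The cluster with the most members spans chr13:67038596-67827002 and holds 23 members, of which 18 had a peak in all 10 libraries and 1, Zfp455, had none. Peaks covered 51.1 and 50.3 kb of it in the Ythdc1 cKO, against 36.4 and 35.6 kb in the controls, while the mean number of peaks was 38.0 in the cKO against 49.0 in the controls. In 18 of the 23 members both cKO libraries exceeded both controls, and in 1 both were lower, where 25.3% of all genes with a peak were longer and 42.2% shorter. In the Mettl3 knockouts the cluster was covered over 31.2, 33.4, 30.5 and 31.1 kb, against 35.1 and 36.4 kb in the controls, with all 4 knockout libraries below both controls. Over all 55 clusters the mean covered length was higher in the cKO in 43, and lower in the Mettl3 knockouts in 43.

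Zfp708 in that cluster, which binds a family of retroviral repeats, was picked for the map of its peaks after its values were seen. In the Ythdc1 cKO a single peak of 1833 and 1872 nt ran from the first fingers to beyond the exon's end, against 2 peaks in each control, of 498 and 565 nt in the first library and of 407 and 384 nt in the second. In the Mettl3 knockouts it had 2 or 3 peaks over 0.794, 1.14, 1.00 and 1.16 kb, against 2 peaks over 1.44 and 1.49 kb in the controls. The gap between the peaks lay over the later fingers in the Ythdc1 controls. Zfp932, another binder of retroviral elements, had 1 peak over 1.84 and 1.83 kb in each cKO library, against 3 and 2 peaks over 1.07 and 0.839 kb in the controls.

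**Figure D5:**
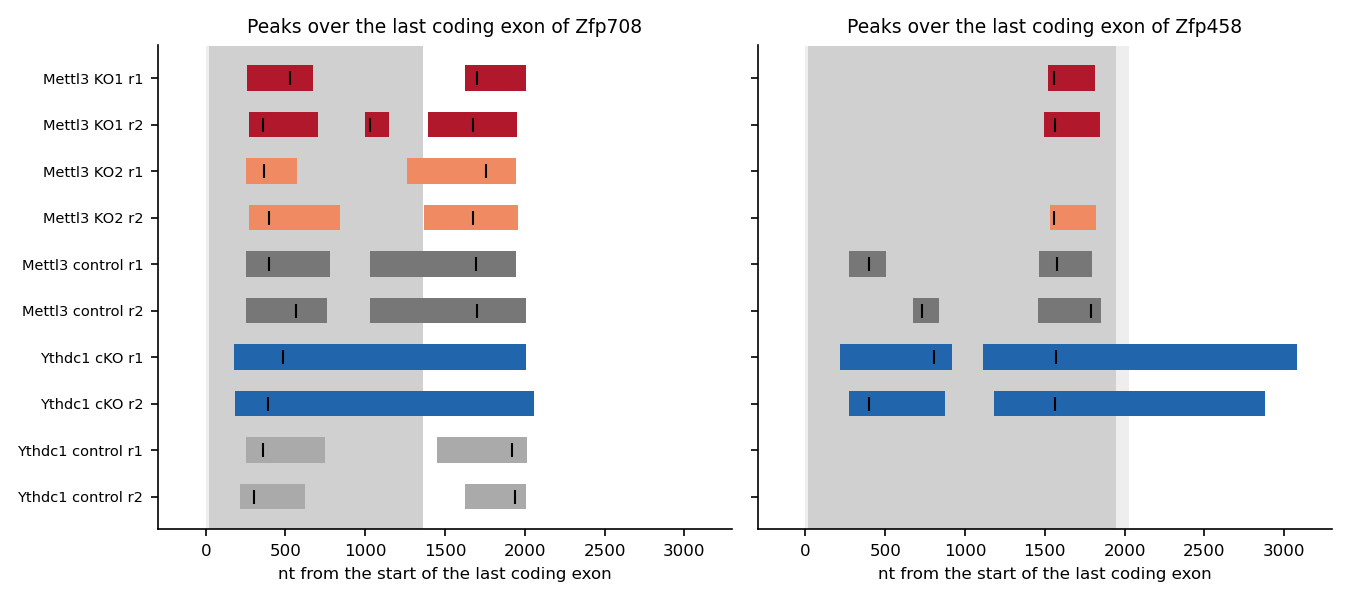
Peaks of Zfp708 and Zfp458 in each of the 10 libraries, by their distance in nt from the start of the last coding exon, with the summit as a black tick. The light band is the exon, and the darker band runs from the first to the last finger. Both Ythdc1 cKO libraries have 1 peak across Zfp708 and 2 long peaks in Zfp458, where the Ythdc1 controls have no peak over the exon.

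Most member regions were kept in the Ythdc1 cKO when joined by overlap. Of 465 member regions with a peak in both controls, 36 (7.74%, against 18.1% of all) were lost and 404 (86.9%, against 71.7%) were kept, and of 461 regions in both cKO libraries 33 (7.16%, against 14.9%) were gained. In coding exons 5 of 215 (2.33%, against 15.7%) were lost, and in introns 25 of 150 (16.7%, against 22.5%). Isolated Zfp genes lost 9.63% of all regions and 6.25% of those in coding exons. The other genes with a long last coding exon lost 10.4% and 6.37%, so both sets lay nearer to the members than the background did. The low shares of members depend on how regions are built. With peaks joined only by summits within 100 nt, 118 of 470 member regions (25.1%) were lost, against 23.7% of all, and in coding exons 47 of 212 (22.2%) were lost, against 22.7%. Gained were 58 of 406 (14.3%), against 19.8% of all. Without the first or the second control library 66 or 72 member regions were lost by overlap, and without the first or the second cKO library 71 or 53 were gained.

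Zfp119b, next to Zfp119a and Zfp959 on chromosome 17, was the single member to lose every control region in the cKO, 1 of 221 (against 7.9% of 9685 genes). It had no peak in the cKO, against 1 in each control at chr17:55939435-55939809 in its finger exon, with folds of 3.94 and 4.03. No peak was found for it in the 6 Mettl3 libraries either. Of its 50-base words, 26.5% are shared with other genes.

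Of the 8 members with the highest-ranked gained regions in the cKO, Zfp458, Zfp712, Zfp493 and Zfp456 belong to that chromosome 13 cluster. Zfp458 (20 fingers) gained 3 regions, 2 of them in the coding exon, at chr13:67255067-67257033 with folds of 7.62 and 7.21 and at chr13:67257227-67257926 with folds of 5.67 and 6.31 in the cKO, and no peak there in the controls. The length under its peaks was 3.66 and 3.23 kb in the cKO against 0.504 and 0.575 kb in the controls. Zfp712 gained a coding-exon region and was covered over 1.88 and 1.47 kb in the cKO against 0.166 and 0.150 kb in the controls. Zfp456 had 2.00 and 1.82 kb in the cKO against 0.408 and 0.854 kb in the controls, and Zfp493 had 2.09 and 2.17 kb in the cKO against 0.989 and 1.05 kb in the controls, each with a gained region in the 3′ UTR. In these 4 genes both cKO libraries exceeded both controls.

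Outside chromosome 13, Zfp282, Zfp981, Zfp810 and Zfp975 gained regions in introns. Zfp981, with 38.7% of its 50-base words shared, was covered over 6.00 and 5.73 kb in the cKO against 2.48 and 2.46 kb in the controls. Zfp282 was covered over 3.60 and 3.31 kb in the cKO against 1.85 and 2.41 kb in the controls, and Zfp810 over 2.94 and 2.92 kb in the cKO against 1.66 and 1.46 kb in the controls. The gain in Zfp282 (chr6:47888313-47888523) is a short region of 1 intron, with folds of 5.88 and 6.52 in the cKO.

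Of the 15 listed members with a known role, 5 were covered longer in both cKO libraries than in either control (Zfp708, Zfp932, Zfp445, Zfp689 and Zfp316) and 4 shorter (Zfp568, Zfp819, Zfp110 and Zfp961), where 25.3% of all genes with a peak were longer and 42.2% shorter. Zfp689 had 1.92 and 1.71 kb in the cKO against 1.50 and 1.56 kb in the controls, and Zfp316 had 2.27 and 2.62 kb in the cKO against 1.38 and 1.22 kb in the controls. Zfp961 had 2 peaks in each cKO library against 8 in each control, over 2.09 and 2.11 kb in the cKO against 2.18 and 2.14 kb in the controls. In the Mettl3 comparison 3 were covered shorter in every knockout library (Zfp708, Zfp93 and Zfp961) and none longer, where 24.1% of all genes with a peak were shorter and 8.72% longer.

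Introns were the other large class of member peaks. Intronic summits numbered 210 to 257 in the Mettl3 knockouts against 221 and 228 in the controls, and 172 and 187 in the cKO against 197 and 190 in the controls, and they lay in 76 to 98 members. By the median they were 10834 to 13114 nt from the gene's start. Within the first 2 kb of the gene lay 14.5% and 12.8% of the intronic summits in the cKO against 18.3% and 16.8% in the controls, and 10.4% to 12.8% in the Mettl3 knockouts against 8.60% and 10.5% in the controls. The intron share of all member peaks was 33.2% ± 1.27 in the cKO and 30.7% ± 0.682 in the controls (SD, n = 2 each; exact permutation p = 0.333, the smallest possible). Of coding exons the share was 45.8% ± 0.306 in the cKO and 45.2% ± 0.521 in the controls, where the groups did not overlap either (exact permutation p = 0.333).

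As a share of the whole list, members held 1.17% and 1.20% of the peaks in the cKO against 1.45% and 1.50% in the controls (exact permutation p = 0.333), and 1.55%, 1.57%, 1.46% and 1.51% in the Mettl3 knockouts against 1.40% and 1.34% in the controls (exact permutation p = 0.0667). The share lay outside the controls' range in every knockout library, lower in the cKO and higher in the Mettl3 knockouts. The other protein-coding genes moved alike, with 61.4% and 61.9% of the list in the cKO against 74.4% and 74.5% in the controls, and 70.3% to 79.1% in the Mettl3 knockouts against 68.3% and 68.2% in the controls. The ratio of the cKO mean to the control mean was 0.805 for members and 0.828 for those genes, and that of the Mettl3 knockouts was 1.11 for members and 1.098 for those genes. On the strand opposite to the members, peaks inside their bodies were few: 25, 23, 33 and 34 in the Mettl3 knockouts against 33 and 38 in the controls, and 47 and 47 in the cKO against 45 and 41 in the controls.

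The genes through which KRAB zinc finger proteins act were examined from a list of 20 symbols, of which 19 were found in the annotation. Trim28, the corepressor bound by the KRAB domain, had no peak in any library, and 13 of the 19 had one in all 10, among them Setdb1, Atf7ip, Chd4, Dnmt1 and Morc3. Of their 80 control regions in the Ythdc1 comparison 23 were lost, against 18.1% over all protein-coding genes, and 45 were kept, against 71.7%. Of their 55 control regions in the Mettl3 comparison 2 were lost, against 8.52% over all, and 38 were kept, against 65.7%. Apart from the control regions, 1 region was gained in each comparison, in Atf7ip in the cKO and in Hdac1 in the Mettl3 knockouts. Dnmt1, the maintenance DNA methyltransferase, lost 4 of its 6 regions in the cKO, and Uhrf1, which recruits it, 3 of 8. In the Mettl3 comparison Dnmt1 had no control region and Uhrf1 had 3, so the control groups also differed in these genes. Atf7ip, a partner of Setdb1, kept 7 of 8 regions in the cKO and all 8 in the Mettl3 knockouts.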

How the data were processed

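Chromatin-associated RNA was depleted of ribosomal RNA, and m6A-carrying fragments were enriched with an antibody kit, per the labels' protocols. The submitters' processing notes name CASAVA, Trimmomatic 0.38, HISAT2 2.1.0, MACS2 and the build mm10. The input libraries and the reads were not used here, and how input entered the peak calls is not given in the sources used here. Each deposited list holds the peaks of 1 library, named as called on the forward and the reverse strand, and in the narrowPeak layout the authors' values per peak are a score, a fold enrichment (ratio), a −log10 p-value and a −log10 q-value. Every deposited peak is at least 150 bp wide with a −log10 q of at least 2. Read depth is unknown. It was approximated by solving the background behind fold and p for 2000 peaks a library (98.4% to 99.6% solved, tolerance 0.01).

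A peak belonged to a gene when its summit lay in the gene body on the same strand. Its class came from all transcripts of the gene that GENCODE tags as basic. Where these differed, 3′ UTR went before coding exon, coding exon before 5′ UTR, and intron came last. Only the last coding exon was taken from the principal transcript. Library groups were compared by exact permutation over libraries, two-sided, and gene sets within libraries by sign-flip permutation over the 10 libraries, with Benjamini-Hochberg adjustment. No p is given for a list of regions. The calculations ran in Python 3.11.15 with pandas 2.3.3, NumPy 2.4.6, SciPy 1.17.1, Biopython 1.88 and matplotlib 3.10.9 and were tested on simulated data. Members and lists were chosen with earlier results of these data known. The number of member peaks, covered length, width, exon coverage, spanning peaks and GGAC were added after seeing the data. Summit position within the finger exon, the other genes with a long last coding exon, AAACC and GAACT were not among the planned results either. Named genes are the 8 with the greatest lowest percentile over the 10 lists, members that lost every control region and the 8 highest-ranked gained. The 5 with most regions, 15 with a listed role, and the cluster with most members as counts and ranges are named too.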

Additional observations from a re-analysis of the deposited data

Results flagged for a closer look

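KO1 and KO2 lay on opposite sides of both Mettl3 control libraries in 4 measures of where member peaks sit, and the difference between the knockout lines was not tested, since 2 libraries against 2 cannot give an exact permutation p below 0.333. The coding-exon share was 41.04% and 41.12% in KO1 and 44.22% and 43.57% in KO2, against 42.41% and 41.24% in the controls. The intron share was 37.26% and 40.03% in KO1 and 32.51% and 32.56% in KO2, against 34.97% and 36.31% in the controls. In the 3′ UTR lay 17.92% and 16.67% of the peaks in KO1 and 20.49% and 21.24% in KO2, against 19.30% and 19.11% in the controls. The last coding exon held 39.94% and 40.03% in KO1 and 42.37% and 42.64% in KO2, against 41.14% and 40.29% in the controls.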

How the results depend on the processing

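For 31 results recomputed under the planned and added alternatives, 326 values counted as the same, 27 moved and 9 changed sign. A difference counted as the same when its sign held and its p stayed on the same side of 0.05, whatever its size. Only counts had a limit on the change in size. Between library groups no exact p could reach 0.05, so the sign alone decided there. The Mettl3 difference in intron share (-0.0458 percentage points) was 0.0327 with members found by transcription start, 0.264 with a 100 kb limit, 0.372 with 40000 peaks a library and 0.626 without members that share sequence, and ran from -1.53 to 0.981 when each library was left out. With 40000 peaks the Mettl3 coding-exon difference was -0.115 (0.663 as reported), and the difference in members with a peak in the Ythdc1 cKO was -1.5 (1.0 as reported). Gained Mettl3 regions (4) numbered 7 with 40000 peaks, 20 by summits and 2 without shared sequence, and 6 to 15 with a library left out. Lost Mettl3 regions (25) numbered 47 when 1 knockout library could keep the peak, and 28 to 54 with a library left out. Lost Ythdc1 regions (36) numbered 118 by summits and 61 when 1 library could keep the peak, and 49 to 72 with a library left out. Gained Ythdc1 regions (33) numbered 58 by summits and 44 to 71 with a library left out. Without shared sequence 251 Mettl3 and 263 Ythdc1 regions were kept. With a replicate block the exact permutation p of the share of the list was 0.111 (Mettl3) and 0.5 (Ythdc1), each the smallest possible. Neither with nor without the block can these tests reach 0.05, so the block could not change a call. Deviations of same-numbered libraries correlated at 0.226, 0.0673 and 0.216 over members for KO1, KO2 and cKO, which leaves unsettled whether the numbers pair the libraries. Members shorter in every Mettl3 knockout numbered 98 without the first control (63 as reported), and members shorter in the cKO 64 without the second control (39 as reported). Read depth is unknown and limits what a missing peak shows.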
